A study of Mus musculus with 12 samples.

Results

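The Schlafen genes are a family of interferon-responsive genes that lie together on mouse chromosome 11. The 7 listed members, Slfn1, Slfn2, Slfn3, Slfn4, Slfn5, Slfn8 and Slfn9, were looked up by symbol through the Entrez Gene IDs of a table of 17571 genes. Rows were found for 6 of the 7, and the level of Slfn1 was not analysed here, although its sequence enters the descriptions below. All 6 entered the tests, which covered the 10412 genes with an FPKM of 1 or more in 3 or more of the 12 libraries. FPKM is a fragment count scaled by transcript length and by the mapped fragments of the library. Members can thus be compared with each other on it, within the limit of the shared sequence described below.

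Schlafen proteins share an N-terminal core and are sorted by length into 3 groups. Group I (Slfn1 and Slfn2) holds little more than the core, group II (Slfn3 and Slfn4) adds a further domain, and group III (Slfn5, Slfn8 and Slfn9) carries in addition a C-terminal region that resembles RNA helicases. The family is best known from lymphocytes and myeloid cells, where Slfn2 is needed for T cells to stay quiescent, and from the response to type I interferon, the cytokine that cells release on sensing foreign DNA or RNA and that induces interferon-stimulated genes (ISGs) through its receptor and the JAK-STAT pathway.

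RNA was sequenced from L929 cells, a mouse fibroblast line of C3H/An origin, in 4 groups of 3 libraries. All cells were first held for 1 h in either DMSO, the vehicle, or the inhibitor BX795. Mock cells received DMSO alone. The pEGFP-N1 group received DMSO and was then transfected with a plasmid carrying EGFP under the CMV promoter, which also exposes the cytosol to DNA. The BX795 group received 0.5 μM BX795, an inhibitor of the kinase TBK1 that acts downstream of the DNA sensor cGAS and of STING, and the BX795 plus pEGFP-N1 group received the same dose and was then transfected. RNA was collected at 6 h. All libraries come from 1 cell line, and no source used here says that the replicates were separate cultures, so p-values measure the spread between these libraries, which may be technical.

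The label fibroblast was checked first. Of 13 fibroblast markers, 9 were tested and their list summed to 1988 to 2533 FPKM per library, although Dcn, a defining fibroblast proteoglycan, was below 0.1 FPKM in all 12. Leukocyte markers were near absent. None of 13 passed the filter, their sum was 0.67 to 1.84 FPKM, and Ptprc, Cd3e, Itgam and Adgre1 were below 0.1 FPKM everywhere. In bulk RNA, fewer cells expressing a gene and less RNA per cell cannot be told apart. Read depth is unknown, because FPKM carries none.

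Libraries with the same label differed in interferon response. Over 21 tested ISGs, the median difference from the mock mean on the log2(FPKM + 1) scale was 3.13 in pEGFP-N1 replicate 1, 3.0 in pEGFP-N1 replicate 3 and 3.15 in BX795 plus pEGFP-N1 replicate 1. In the other 6 treated libraries it lay between -0.11 and 0.21, so pEGFP-N1 replicate 2 sat near the mock libraries and BX795 plus pEGFP-N1 replicate 1 near the other 2 pEGFP-N1 libraries. The ISG levels of these 2 libraries thus went against the rest of their labelled groups. The labels were kept, and whether each received the treatment its label gives was not tested here (the study's RT-qPCR of the sequenced samples was not used), so every pEGFP-N1 and BX795 plus pEGFP-N1 value holds for the libraries as labelled. Group comparisons of the Schlafen genes are given with and without these 3 libraries, and the 3 were never averaged as a group.

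The cluster spans 263.8 kb of chromosome 11 (GRCm38). In coding length the members start at 1011 bases in Slfn1 (337 codons) and 1134 in Slfn2 (378 codons). Slfn4 has 1806, Slfn3 1920, Slfn5 2652, and both Slfn8 and Slfn9 2730. Slfn5 (chr11:82951349-82964840, plus strand, 6 exons) opens the cluster, followed by Slfn9 (chr11:82978390-82991830, minus strand, 5 exons), Slfn8 (chr11:83002158-83020810, minus strand, 6 exons) and Slfn2 (chr11:83065112-83070678, plus strand, 2 exons). Then come Slfn1 (chr11:83116849-83122670, plus strand, 2 exons), Slfn4 (chr11:83175186-83190216, plus strand, 8 exons) and Slfn3 (chr11:83191330-83215154, plus strand, 4 exons).

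**Figure D1:**
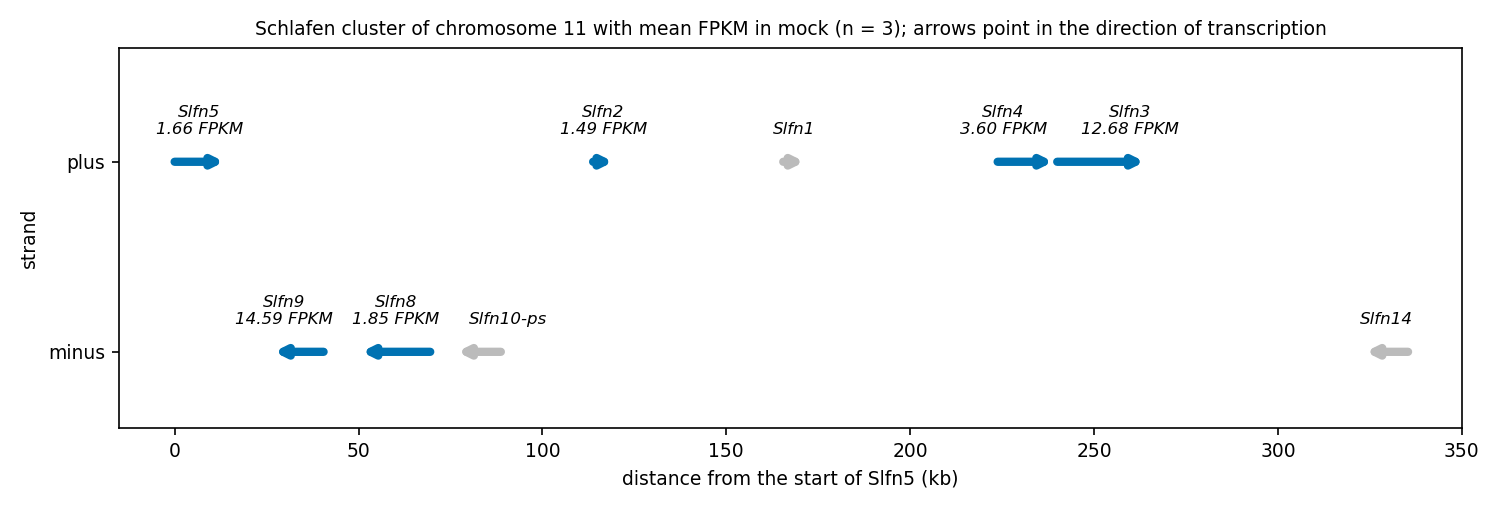
Position of the Schlafen genes along chromosome 11 in kb from the start of Slfn5, by strand, with the mean mock FPKM (n = 3) above each analysed member in blue. Genes in grey carry no level in the drawing. The most abundant members, Slfn9 at 14.59 and Slfn3 at 12.68 FPKM, lie near opposite ends of the cluster, and each has a close copy of low level beside it, Slfn8 at 1.85 and Slfn4 at 3.60 FPKM.

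Some members are close copies. Slfn8 and Slfn9 were identical at 92.7% of aligned coding bases, as were Slfn3 and Slfn4, whereas the other pairs lay between 63.2% and 77.0%. Of the 31-base words of the transcripts, 30.0% in Slfn3, 26.8% in Slfn8, 23.6% in Slfn9, 20.1% in Slfn4, 10.3% in Slfn2 and 4.92% in Slfn5 also occur in a transcript of another gene. The authors kept up to 200 alignments per read and divided them by estimation, so the split of reads between genes that share words is uncertain. Besides the Slfn3 and Slfn4 pair and the Slfn8 and Slfn9 pair, Slfn10-ps shared 18.7% of the words of Slfn8 and 14.3% of those of Slfn9, Gm11427 shared 10.8% of those of Slfn3, and Slfn4 shared 6.98% of those of Slfn2. Slfn2 and Slfn5 are overlapped on the opposite strand by Gm20234 (4927 bases) and Slfn5os (9333 bases). Whether strand was used in counting is not given in the sources used here, so reads of these antisense genes cannot be told apart from those of Slfn2 and Slfn5.

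Promoter windows were searched for exact matches to short sequences that interferon-activated factors are known to bind. Each window holds 250 bases before to 50 bases after the RefSeq transcript start (GRCm38.p6), written 5′ to 3′ on the strand of the gene. Capitals mark the core of the interferon-stimulated response element (ISRE), searched on both strands as TTTC, any 2 bases and TTTC. The core occurred in the windows of Slfn9, Slfn8 and Slfn5, all of group III, and in those of 3.99% of 27025 genes. It was not in the windows of Slfn1, Slfn2, Slfn3 or Slfn4, and the gamma-activated site core TTCNNNGAA, held by 9.55% of genes, was in none of the 7. One matching window each of Slfn9, Slfn8 and Slfn5 is shown with that of Slfn2, the member whose level varied most. They are Slfn9 at chr11:82991781-82992080 (minus strand), Slfn8 at chr11:83020761-83021060 (minus strand), Slfn5 at chr11:82951852-82952151 (plus strand) and Slfn2 at chr11:83064862-83065161 (plus strand).
Slfn9: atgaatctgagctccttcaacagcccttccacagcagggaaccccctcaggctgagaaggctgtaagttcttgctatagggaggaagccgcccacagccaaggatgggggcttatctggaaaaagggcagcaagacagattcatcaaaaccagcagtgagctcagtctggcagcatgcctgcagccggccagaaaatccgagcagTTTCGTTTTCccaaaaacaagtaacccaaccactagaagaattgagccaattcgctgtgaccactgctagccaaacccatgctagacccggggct
Slfn8: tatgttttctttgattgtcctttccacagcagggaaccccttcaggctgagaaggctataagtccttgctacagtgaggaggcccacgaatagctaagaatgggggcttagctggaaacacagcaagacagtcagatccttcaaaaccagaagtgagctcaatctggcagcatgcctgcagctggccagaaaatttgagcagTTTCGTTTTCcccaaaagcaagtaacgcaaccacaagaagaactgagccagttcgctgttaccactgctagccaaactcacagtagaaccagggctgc
Slfn5: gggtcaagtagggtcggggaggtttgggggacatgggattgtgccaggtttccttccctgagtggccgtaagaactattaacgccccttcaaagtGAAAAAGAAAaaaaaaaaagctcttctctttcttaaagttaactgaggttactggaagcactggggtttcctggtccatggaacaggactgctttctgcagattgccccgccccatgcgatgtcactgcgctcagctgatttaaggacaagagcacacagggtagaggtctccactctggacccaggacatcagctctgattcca
Slfn2: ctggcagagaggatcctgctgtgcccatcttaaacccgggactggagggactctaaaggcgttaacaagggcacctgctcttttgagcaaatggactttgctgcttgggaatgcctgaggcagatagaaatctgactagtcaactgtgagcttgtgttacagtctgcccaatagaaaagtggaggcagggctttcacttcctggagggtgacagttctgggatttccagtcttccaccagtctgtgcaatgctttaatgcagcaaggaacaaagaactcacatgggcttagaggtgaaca
Counted from the start site, the match ran from -45 to -36 in Slfn9 and from -48 to -39 in Slfn8, on the strand of the gene. A second RefSeq start of Slfn8 (window chr11:83020673-83020972) lies downstream, and from it the same match stood at -136 to -127. That of Slfn5 lay at -155 to -146 on the opposite strand and runs into a stretch of A bases. The Slfn5 window begins downstream of the start of the gene model given above and lies inside it. The Slfn9 and Slfn8 windows were identical at 84.9% of aligned bases, and every other pair of the 7 windows lay between 52.6% and 64.4%. A match in these letters is a description and does not show that a factor binds there. Near matches were not searched, so a window without an exact match may still hold one that a factor binds.

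At baseline the members differed widely in level. In mock cells Slfn9 stood at 14.6 ± 0.526 FPKM (mean ± SD, n = 3 here and below) and Slfn3 at 12.7 ± 0.0777. Slfn4 followed at 3.60 ± 0.300. Slfn8 at 1.85 ± 0.288, Slfn5 at 1.66 ± 0.277 and Slfn2 at 1.49 ± 0.237 overlapped each other, so the order of these 3 was not resolved beyond their spread. Each of the gaps from Slfn9 to Slfn3, from Slfn3 to Slfn4 and from Slfn4 to the lowest 3 was free of overlap between libraries. The spread between libraries does not cover the uncertain split of reads between close copies. Slfn9 alone made up 40.4% to 41.0% of the summed Schlafen FPKM in mock cells and Slfn3 34.6% to 36.4%.

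Slfn2, the group I member with a role in lymphocyte quiescence, was the one whose level varied most. Its FPKM in mock replicates 1 to 3 was 1.76, 1.36 and 1.34. In pEGFP-N1 it was 4.96, 2.03 and 4.81, in BX795 3.82, 3.17 and 2.66, and in BX795 plus pEGFP-N1 3.31, 4.27 and 2.38. All 9 treated libraries lay above all 3 mock libraries, which held for 1.93% of the genes tested and for no other member. The ratio of group means to mock was 2.65 for pEGFP-N1, 2.16 for BX795 and 2.23 for BX795 plus pEGFP-N1. Its span over the 12 libraries was 1.35 on the log2 scale, wider than that of 97.9% of the genes tested.

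Slfn2 and the ISGs were set side by side in the 9 treated libraries. Its difference from the mock mean was 1.27 in pEGFP-N1 replicate 1 and 1.23 in pEGFP-N1 replicate 3, where the ISG median was about 3. It was 0.80 in BX795 plus pEGFP-N1 replicate 1, an ISG-high library, and 1.09 in BX795 plus pEGFP-N1 replicate 2, where the ISG median was -0.03. In BX795 plus pEGFP-N1 replicate 3 it was 0.45, with an ISG median of 0.21. The 3 BX795 libraries, with no transfection and ISG medians of -0.11 to -0.01, stood at 0.96, 0.75 and 0.56. In pEGFP-N1 replicate 2, labelled as transfected and with little ISG response, Slfn2 was 0.29 above the mock mean.

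Slfn3 and Slfn4, the intermediate group II members, were near flat. Slfn3 read 12.70, 12.59 and 12.74 FPKM in mock, 12.80, 10.06 and 14.28 in pEGFP-N1, 11.54, 11.40 and 11.23 in BX795, and 11.42, 10.32 and 14.42 in BX795 plus pEGFP-N1. The 3 BX795 libraries lay below all mock libraries, as for 16.2% of all genes tested, by 0.14 on the log2 scale on average. Both transfected groups ran from below to above the mock range. Slfn4 read 3.60, 3.30 and 3.90 in mock, 3.59, 3.19 and 2.66 in pEGFP-N1, 3.01, 3.82 and 3.76 in BX795, and 3.67, 3.16 and 3.87 in BX795 plus pEGFP-N1. No library of Slfn4 exceeded the highest mock value. Spans were 0.48 for Slfn3 and 0.42 for Slfn4, at the 56.8 and 45.4 percentiles of the genes tested.

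Among the long group III members, Slfn5 was higher in some transfected libraries. Its FPKM was 1.78, 1.85 and 1.34 in mock, 2.60, 1.56 and 2.26 in pEGFP-N1, 1.44, 1.93 and 1.61 in BX795, and 2.64, 1.49 and 3.57 in BX795 plus pEGFP-N1. Of 5 libraries above all mock values, 3 were the ISG-high libraries, at 0.44, 0.30 and 0.46 above the mock mean. The other 2 were BX795 replicate 2, at 0.15, and the highest of all, BX795 plus pEGFP-N1 replicate 3 at 0.79, whose ISG medians were -0.11 and 0.21. The span of Slfn5 was 0.97, at the 94.7 percentile of the genes tested.

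Slfn8 and Slfn9, the near-identical long pair, stood at different levels. Slfn9 read 14.91, 13.98 and 14.87 FPKM in mock, 16.11, 11.55 and 15.09 in pEGFP-N1, 12.35, 12.44 and 12.27 in BX795, and 14.81, 11.56 and 14.15 in BX795 plus pEGFP-N1. Slfn8 read 1.95, 1.53 and 2.08 in mock, 2.15, 1.28 and 2.19 in pEGFP-N1, 1.44, 1.67 and 1.5 in BX795, and 1.86, 1.59 and 1.53 in BX795 plus pEGFP-N1. The 3 BX795 libraries of Slfn9 lay below all its mock libraries, as for 16.2% of all genes tested, at 12.4 ± 0.085 against 14.6 ± 0.526 FPKM. Over the 9 treated libraries the differences from mock of the 2 genes were 0.0938 apart (root mean square, log2), the closest of the 15 pairs of members. Slfn3, which is no close copy of either, was 0.116 from Slfn9 and 0.145 from Slfn8, and Slfn2 was 0.75 to 0.99 from every other member. Shared reads bear on Slfn8 and Slfn9, and their part in the likeness was not tested.

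**Figure D2:**
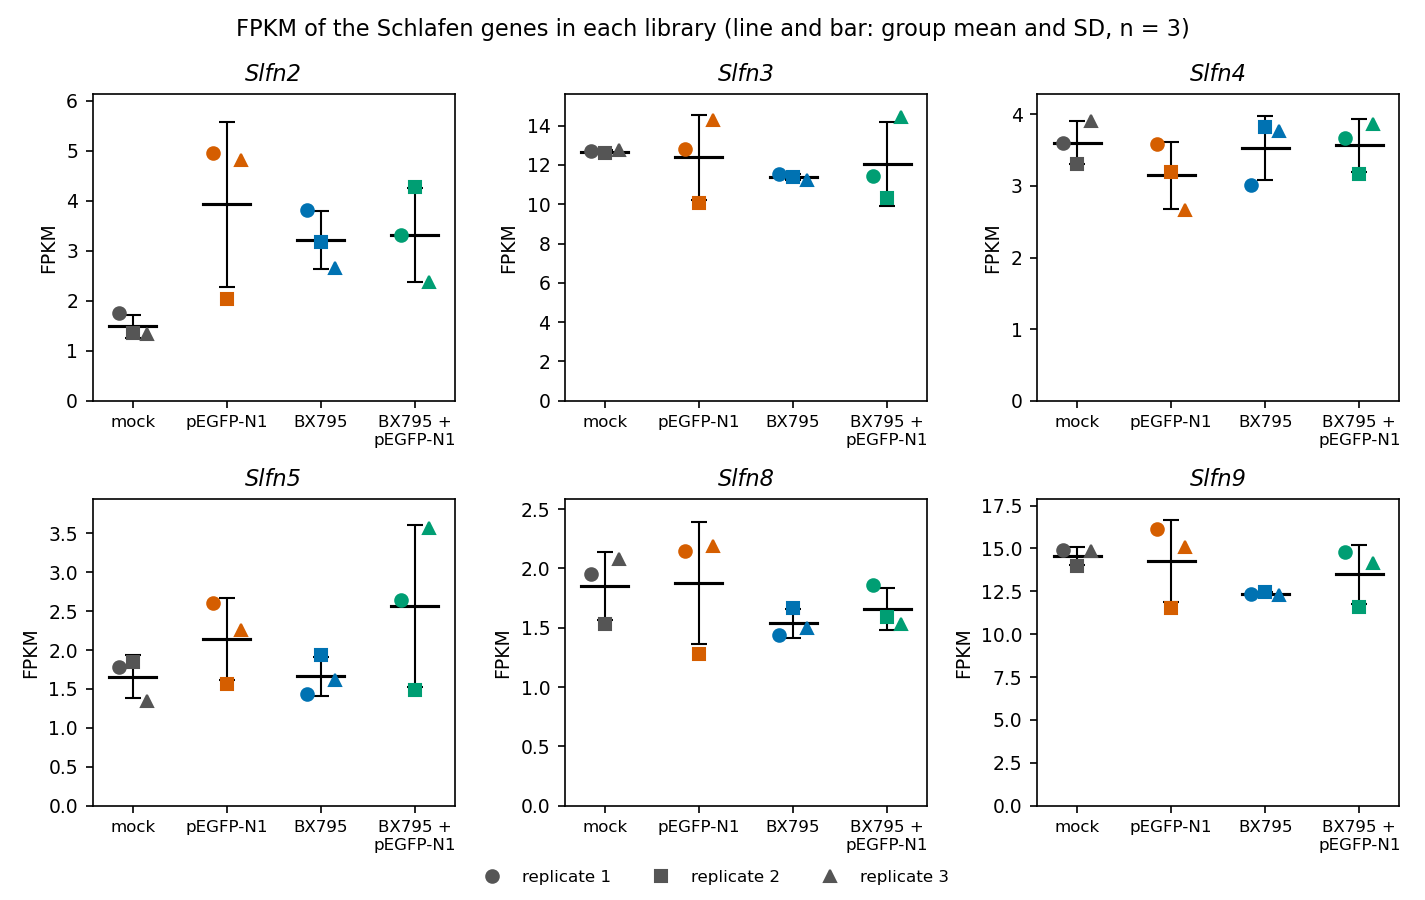
FPKM of each analysed Schlafen gene in every library by group, with symbols for the replicate number and a line and bar for the group mean and SD (n = 3). Every treated library of Slfn2 sits above its mock libraries (1.34 to 1.76 FPKM), while Slfn3, Slfn4, Slfn8 and Slfn9 keep overlapping ranges between mock and both transfected groups.

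The Schlafen genes and the ISGs were then read side by side in each library. The 3 ISG-high libraries were named by these same ISGs, and 12 of the 21 ISGs passed the filter only with them, among them Ifit1 at 92.64 to 96.67 FPKM there and at most 0.57 elsewhere, so the ISG counts are a description. In pEGFP-N1 replicate 1, 19 of 21 ISGs and 1 of 6 Schlafen genes, Slfn2, exceeded the mock mean by 1 or more (log2), as did 0.768% of all genes tested. The counts were again 19 and 1, Slfn2, in pEGFP-N1 replicate 3, with 0.759% of all genes. In BX795 plus pEGFP-N1 replicate 1 they were 19 and 0, with 0.816%. The median over the 6 members in these libraries was 0.14, 0.16 and 0.02. Among the ISG-low libraries, Slfn2 in BX795 plus pEGFP-N1 replicate 2 was the single member at least 1 above mock, with 0.259% of all genes. No member passed this mark in pEGFP-N1 replicate 2 (0.288% of genes), in BX795 replicates 1 to 3 (0.240%, 0.259% and 0.307%) or in BX795 plus pEGFP-N1 replicate 3 (0.499%). No member in any treated library was that far below mock, where the shares of all genes were 0.0672%, 0.115% and 0.0576% in pEGFP-N1 replicates 1 to 3, 0.0864%, 0.0768% and 0.115% in BX795, and 0.0576%, 0.115% and 0.432% in BX795 plus pEGFP-N1. The members of highest baseline stayed close to it in the 3 ISG-high libraries, in which Slfn9 was 0.14, 0.05 and 0.02 above the mock mean, and Slfn3 differed by 0.01, 0.16 and -0.14.

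**Figure D3:**
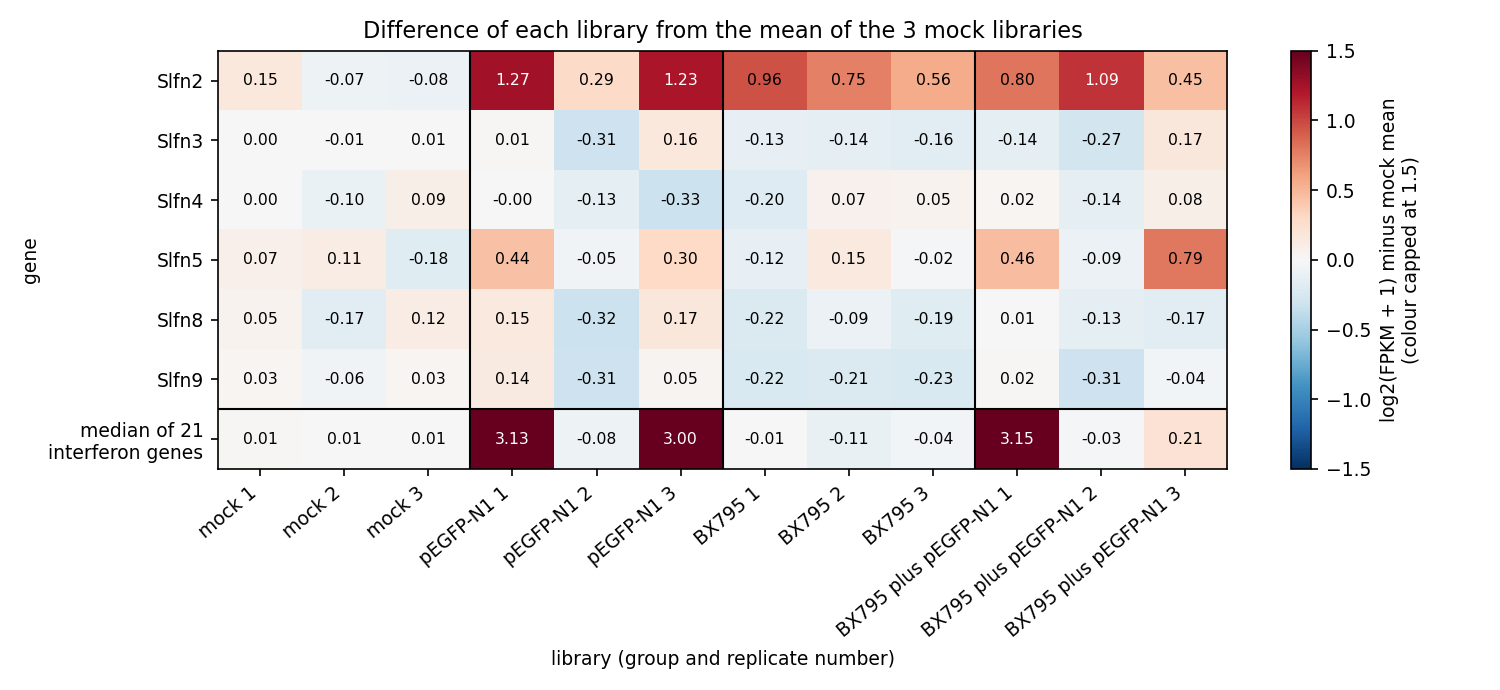
Difference of log2(FPKM + 1) from the mean of the 3 mock libraries for each Schlafen gene and, in the bottom line, the median over 21 ISGs, in all 12 libraries; the colour stops at 1.5. The ISG median is about 3 in pEGFP-N1 replicates 1 and 3 and in BX795 plus pEGFP-N1 replicate 1, whereas positive values of Slfn2 run through all 9 treated libraries.

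Transfection alone asked which genes differ between pEGFP-N1 and mock cells. None of the 4 groups is labelled as given the transfection reagent without plasmid, so reagent, plasmid DNA and EGFP expression cannot be told apart. The plasmid effect named below covers them together. No Schlafen gene passed limma's test of pEGFP-N1 against mock at an adjusted p under 0.05, against 0.0672% of all genes called higher and 0% lower. Slfn2 came nearest, with a log2 fold change of 0.93 (SE 0.24) and an adjusted p of 0.475. Its unadjusted p from limma was 0.00248, and it was the single member under 0.05, with 2.57% of all genes higher and 2.11% lower at that level. Slfn5 followed at 0.23 (SE 0.20), and the other 4 lay between -0.15 and -0.0016. Slfn2 was also the 1 member with no overlap between the groups, as were 5.52% of all genes in that direction and 7.41% in the other, and the exact permutation p was 0.1 (two-sided), the smallest that 3 against 3 allows.

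The Slfn2 result rested on which transfected libraries entered. Without pEGFP-N1 replicate 2, the ISG-low library, its log2 fold change was 1.25 (SE 0.17, adjusted p 0.0194), with 0.144% of genes called higher. All members but Slfn4 then lay above all mock libraries, 5 of 6, as did 21% of all genes. Without the 3 ISG-high libraries, which leaves pEGFP-N1 replicate 2 as the lone library of its group and assumes that it varies like the other groups, the value was 0.29 and that of Slfn5 -0.05. Slfn3, Slfn8 and Slfn9, close to 0 on all libraries, then had -0.31, -0.32 and -0.31 (adjusted p 0.214, 0.193 and 0.119), and Slfn4 -0.13. No member was called in that fit, with 2.41% of all genes called higher and 0.951% lower.

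BX795 alone asked what the inhibitor did without transfection. Again no member passed the test, with 0.0384% of genes called higher and 0.0288% lower. Slfn2 had a log2 fold change of 0.76 (SE 0.24), an unadjusted p of 0.00892 and an adjusted p of 0.259. It was the 1 of 6 at an unadjusted p under 0.05, where 8.45% of genes were higher and 5.40% lower. Slfn9 had -0.22 (SE 0.11, adjusted p 0.399), Slfn8 -0.17, Slfn3 -0.14, Slfn4 -0.03 and Slfn5 0.00. All 3 BX795 libraries were above mock for Slfn2, as for 23.6% of all genes, and below mock for Slfn3 and Slfn9, as for 16.2%. The exact permutation p was 0.1 for each of these 3 genes.

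In this comparison the calls depended on the libraries that set the spread. With the mock and BX795 libraries alone, Slfn2 was called higher (adjusted p 0.00287) and Slfn9 lower (adjusted p 0.0149), where 12.7% of all genes were called higher and 7.97% lower. Slfn2 was also called without the 3 ISG-high libraries (adjusted p 0.0193, 6.75% of genes higher) and without pEGFP-N1 replicate 2 (adjusted p 0.0428, 0.816% higher). The log2 fold change of Slfn2 was 0.76 in each of these fits.

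The last comparisons asked whether the inhibitor altered the response to transfection. Between BX795 plus pEGFP-N1 and BX795 no member was called, nor was any gene (0% in either direction), and the largest difference was that of Slfn5, 0.38 (SE 0.20, adjusted p 0.604). It was 0.18 without BX795 plus pEGFP-N1 replicate 3 and 0.62 without replicate 2 of that group, and without the 3 ISG-high libraries it was 0.35 (SE 0.22, adjusted p 0.461), where the other 5 lay between -0.0043 and 0.093. At an unadjusted p under 0.05 no member passed, with 1.96% of genes higher and 3.60% lower. With pEGFP-N1 as the reference for BX795 plus pEGFP-N1, no member and no gene (0%) was called, and Slfn2 differed by -0.15 (SE 0.24, adjusted p 0.959), with 0.749% of genes higher and 0.845% lower at an unadjusted p under 0.05 and no member among them. No member was free of overlap in either comparison, against 4% and 6.66% of genes in the first and 1.39% and 1.41% in the second. Without the 3 ISG-high libraries the second comparison gave 0.48 for Slfn2, 0.26 for Slfn3, 0.17 for Slfn8 and 0.14 for Slfn9, each opposite in sign to the fit on all libraries and none called (0% of all genes). The pEGFP-N1 side of that fit is replicate 2 alone, with the spread taken from the other groups, so these signs rest on 1 library.

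The difference between the plasmid effect with and without BX795 was not called for any member or gene (0%). Slfn2 had -0.91 (SE 0.34, limma adjusted p 0.842). Its unadjusted p was 0.0214, and it was the single member under 0.05, where 1.51% of genes were higher and 2.40% lower. The other 5 lay between 0.07 and 0.17. Without the 3 ISG-high libraries Slfn2 had -0.28 (SE 0.30, adjusted p 0.544) and the other 5 lay between 0.13 and 0.40, again with no member called, whereas 1.14% of all genes were called higher and 3.04% lower. This fit too has pEGFP-N1 replicate 2 as the lone library of its group. This contrast is built from the same 12 libraries as those above.

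**Figure D4:**
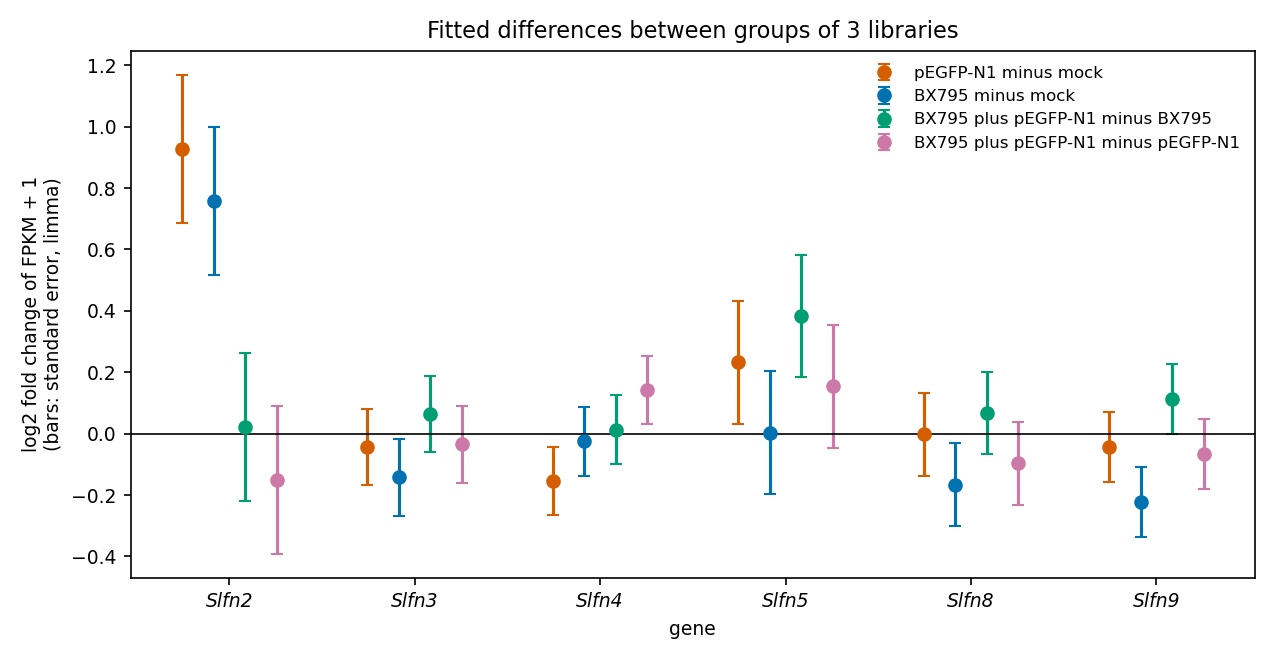
Fitted log2 fold change of FPKM + 1 with its standard error for each Schlafen gene in 4 pairwise comparisons of groups of 3 libraries. Slfn2 stands at 0.93 for pEGFP-N1 and 0.76 for BX795 against mock, and no point reached an adjusted p under 0.05.

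The type I interferon pathway itself was tested by role. Of 17 genes listed, 13 were tested, and 1 was called in any comparison. This was Irf1, a transcription factor of the interferon response, at a log2 fold change of 0.91 (SE 0.12, adjusted p 0.0265) for pEGFP-N1 against mock. This call was lost with any 1 mock library, pEGFP-N1 replicate 1 or 3, BX795 replicate 2 or 3, or BX795 plus pEGFP-N1 replicate 2 left out (adjusted p 0.0607 to 0.242), with no filter (0.0702) and with only the groups compared (0.148), while the fold change lay between 0.71 and 1.01 in every fit. At an adjusted p under 0.05 the call held in the other refits, among them without pEGFP-N1 replicate 2 (1.01, adjusted p 0.00786), with the replicate block (adjusted p 0.0285) and after rescaling to TPM (adjusted p 0.0206). Without the 3 ISG-high libraries, which leaves 1 library in the pEGFP-N1 group, the fold change was 0.71. Among the ligands, 3 of 4 had a row, none passed the filter, and their summed FPKM was 0 in mock and at most 0.47 elsewhere. The receptor genes Ifnar1 and Ifnar2 had -0.03 (SE 0.11) and 0.07 (SE 0.10) for pEGFP-N1 against mock. The signal transducer Stat2 had 1.25 (SE 0.40, adjusted p 0.699). The ISG Isg15 had 3.56 (SE 1.51, adjusted p 0.995). In pEGFP-N1 replicate 2, the library of the group that remains without the ISG-high ones, the difference from the mock mean was 0.26 for Stat2 and -0.36 for Isg15.

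The genes most like Slfn2 were found by the root mean square difference of their log2 values from mock over the 9 treated libraries. They were Egr1, an immediate early zinc finger factor, at 0.222, Irf1 at 0.236 and the cytokine gene Il6 at 0.278. Egr1 read 1.07, 1.15 and 1.15 FPKM in mock, 3.08, 1.58 and 3.39 in pEGFP-N1, 2.80, 1.90 and 1.85 in BX795, and 2.82, 2.84 and 2.71 in BX795 plus pEGFP-N1. Irf1 read 12.70, 12.94 and 14.92 FPKM in mock, 28.69, 22.67 and 27.81 in pEGFP-N1, 24.56, 21.70 and 23.01 in BX795, and 28.58, 23.92 and 20.19 in BX795 plus pEGFP-N1. Il6 read 0.41, 0.56 and 0.56 FPKM in mock, 2.44, 0.73 and 2.14 in pEGFP-N1, 1.51, 1.04 and 1.15 in BX795, and 1.93, 1.19 and 1.74 in BX795 plus pEGFP-N1. Like Slfn2, the 3 genes were above all their mock libraries in all 9 treated libraries, over which they had been chosen for their closeness to it.

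Genes beside the cluster gave levels from the same stretch of the chromosome. Within 500 kb of its ends the annotation holds 24 protein-coding genes outside the Schlafen family, of which 21 had a row, 12 were tested and 3 spanned at least 1 on the log2 scale, as did 4.82% of all genes tested. Ccl5, a chemokine gene, read 0.52, 0.10 and 0.10 FPKM in mock and 253, 0.21 and 243 in pEGFP-N1. In BX795 plus pEGFP-N1 replicate 1 it read 260 and in the other BX795-treated libraries at most 1.70. Ccl4, another chemokine gene, was listed at 0 in mock and read 6.51, 0.09 and 7.23 in pEGFP-N1 and 8.52 in BX795 plus pEGFP-N1 replicate 1. Heatr9 was listed at 0 in mock and read 1.69, 0.03, 2.19 and, in that same library, 1.6. All 3 genes passed the filter only with the 3 ISG-high libraries, Ccl5 reaching 1 FPKM in 1 other library, and were chosen for their span, so their being high in those libraries is a description.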

How the data were processed

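Libraries were sequenced on a BGISEQ-500. The authors mapped reads to GRCm38.p5 with Bowtie2 2.2.5, which reported at most 200 alignments of a read, and RSEM then gave the gene-level estimates. The deposited table holds these FPKM values for 17571 Entrez Gene IDs, of which 17450 were named through RefSeq. Whole reads could not be recovered, so no count test was run. FPKM summed to 467348 to 513761 per library, depth is unknown, and no 2 libraries were identical.

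Genes with FPKM of at least 1 in at least 3 of 12 libraries were tested with limma 3.58.1 (R 4.3.3) on log2(FPKM + 1), which understates the changes of low genes. The model had 4 group means, an empirical Bayes trend and Benjamini-Hochberg adjustment over all 10412 genes, called at adjusted p under 0.05. The study's own differential test needs counts and was not used. Single members were also compared by two-sided exact permutation tests of 3 against 3. The script was tested on simulated data.

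The members and lists were chosen with earlier results of these data known. Named genes were the members, other Schlafen symbols, the 3 genes nearest in pattern to each member with a log2 span of at least 1, genes within 500 kb of the cluster with a span of at least 1, and a short list of pathway genes. Gene models were those of GENCODE M21 and promoters of RefSeq (GRCm38.p6). Coding sequences were compared in place of proteins. Alternatives covered the pseudocount, the filter, rescaling to TPM or by the 75th percentile, the replicate block, the groups fitted, the study's stricter threshold, an unadjusted p, and leaving out each library or the 3 ISG-high ones.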

Additional observations from a re-analysis of the deposited data

How the results depend on the processing

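The 30 fitted member fold changes and 24 counts of members were recomputed under the alternatives, the fold changes of the difference of plasmid effects, and the fits of Irf1 given above, having been added after seeing the data. Over all fits of the fold changes, 523 kept direction and side of the threshold, 5 passed it (those of Slfn2 and Slfn9 given above) and 36 changed sign, none of them called. Of the counts, 152 stayed and 14 moved. Leaving out 1 library, members called ranged from 0 to 1 for pEGFP-N1 and for BX795 against mock (1 without pEGFP-N1 replicate 2), and members not overlapping between pEGFP-N1 and mock from 1 to 5. Against 0, BX795 minus mock had 1 call without the 3 ISG-high libraries and 2 with only the groups compared, and an unadjusted p gave 1 in pEGFP-N1 minus mock, in BX795 minus mock and in the difference of plasmid effects. Members at least 1 above mock became 1 with a pseudocount of 0.1 in BX795 replicates 1 and 2 and BX795 plus pEGFP-N1 replicates 1 and 3, and 1 after rescaling to TPM in BX795 replicate 1 and BX795 plus pEGFP-N1 replicate 3. The shares of all genes past this mark were not computed under these settings, so these counts have no background to be read against.

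Leaving out 1 library, the log2 fold changes that changed sign ranged, for pEGFP-N1 minus mock, from -0.15 to 0.086 in Slfn3, -0.086 to 0.16 in Slfn8 and -0.13 to 0.091 in Slfn9. For BX795 minus mock they ranged from -0.073 to 0.060 in Slfn4 and -0.086 to 0.063 in Slfn5. For BX795 plus pEGFP-N1 minus BX795 they ranged from -0.13 to 0.19 in Slfn2, -0.063 to 0.16 in Slfn3 and -0.072 to 0.079 in Slfn4. For BX795 plus pEGFP-N1 minus pEGFP-N1 they ranged from -0.47 to 0.019 in Slfn2, -0.17 to 0.067 in Slfn3, -0.046 to 0.39 in Slfn5 and -0.20 to 0.034 in Slfn9. For the difference of plasmid effects they ranged from -0.023 to 0.21 in Slfn3, -0.049 to 0.39 in Slfn5 and -0.089 to 0.15 in Slfn8. Without the 3 ISG-high libraries, pEGFP-N1 minus mock was -0.048 in Slfn5, BX795 plus pEGFP-N1 minus BX795 was -0.0043 in Slfn4, and BX795 plus pEGFP-N1 minus pEGFP-N1 was 0.48 in Slfn2, 0.26 in Slfn3, 0.17 in Slfn8 and 0.14 in Slfn9. Division by the 75th percentile gave 0.0012 in Slfn8 for pEGFP-N1 minus mock and -0.0080 in Slfn5 for BX795 minus mock, the latter -0.0058 after rescaling to TPM. The causes were not tested.

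The replicate block changed no member's call at an adjusted p under 0.05. At an unadjusted limma p under 0.05 it added Slfn9 for BX795 against mock (p 0.0343), where 687 of 10412 genes were lower. Under the block Slfn2 kept its log2 fold change of 0.93 for pEGFP-N1 against mock (adjusted p 0.428) and of 0.76 for BX795 (adjusted p 0.178), and 5 genes in all were called higher for pEGFP-N1 in place of 7. The numbers were not taken to pair the libraries, since no source used here says that they mark a shared day. Deviations of same-numbered libraries correlated between -0.389 and 0.635 across pairs of groups. Among the treated groups they were positive for replicates 1 (0.216 to 0.635) and 2 (0.116 to 0.607). For replicates 3 they were negative (-0.389 to -0.089), and the means over different numbers were -0.204 to -0.036.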

Other observations

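Outside the listed members, Slfn14, a long group III gene just beyond the cluster, was listed at 0 FPKM in 9 of 12 libraries and was at most 0.04 in the others. Slfnl1, a Schlafen-like gene on chromosome 4, lay between 0 and 0.20 FPKM. Neither passed the filter on low values, so neither was tested. Slfn10-ps, the annotated pseudogene between Slfn8 and Slfn2, was not analysed here, although 32.4% of its 31-base words occur in transcripts of other genes, 23.7% in Slfn9 and 21.6% in Slfn8.

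The summed FPKM of the 6 members ran from 34.61 to 36.70 in mock. It was 42.21, 29.67 and 41.29 in pEGFP-N1, 33.60, 34.43 and 33.03 in BX795, and 37.71, 32.39 and 39.92 in BX795 plus pEGFP-N1. The 2 lowest and the 4 highest sums were those of the 6 transfected libraries. The share of Slfn2 in that sum was 3.69% to 4.80% in mock and 5.96% to 13.2% in the treated libraries.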
